A study of Homo sapiens with 4 samples.

Results

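The aminoacyl-tRNA synthetase genes were examined as targets of ZNF217, a zinc finger transcription factor, in AML cells. They were taken from a list of gene names, drawn up with earlier results of these data known although no measured value entered the rule, and comprised 35 of 19970 protein-coding genes on chromosomes 1 to 22 and X in GENCODE release 44. Of these, 19 encode cytosolic enzymes (symbols ending in 1, with FARSA and FARSB) and 16 encode mitochondrial enzymes (symbols ending in 2). The list does not hold every synthetase.

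ZNF217 binding was mapped by CUT&Tag, in which a transposase tethered to an antibody cuts and tags the DNA around the bound protein. The 2 lines were MV4-11 and U937, both human AML lines, grown without treatment and each represented by 1 library made with an antibody to ZNF217 and the Vazyme hyperactive CUT&Tag kit. MV4-11 is a myelomonocytic leukemia line with a KMT2A fusion, and U937 is a monocytic line with a PICALM fusion. The 2 IgG samples were not analysed here. With 1 library per line, a difference between MV4-11 and U937 could not be told apart from a difference between libraries, no test was possible, and the intervals given are exact 95% intervals that cover counting error only.

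Aminoacyl-tRNA synthetases join each amino acid to its tRNA, the step that sets the genetic code in protein synthesis. Cytosol and mitochondria mostly use separate enzymes from separate nuclear genes, although GARS1 and KARS1 encode both forms and HARS1 and HARS2 lie head to head. Several cytosolic enzymes are held with the scaffold proteins AIMP1, AIMP2 and EEF1E1 in the multi-synthetase complex. When amino acids run short, uncharged tRNA activates the kinase GCN2 (EIF2AK4), and the transcription factor ATF4 then binds C/EBP-ATF response elements in many cytosolic synthetase genes.

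The promoter letters that this gene set is best known for are shown first. Promoter sequences were RefSeq's, on build GRCh38.p14, from 250 bases before to 50 bases after the start, and were found for 30 of the 35 genes. LARS1, VARS1, YARS1, AARS2 and VARS2 are named only. The C/EBP-ATF response element was searched as TGATGCAA on both strands, and matched 6 of 30 synthetase promoters (20%), against 104 of 15315 promoters of all genes in the table (0.679%). All 6 were cytosolic (6 of 16), and 0 of 14 mitochondrial promoters had the element. The 60 bases around each match are given 5′ to 3′ along the gene, with the element or its reverse complement in capitals.
AARS1: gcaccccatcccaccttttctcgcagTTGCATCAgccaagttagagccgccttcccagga
CARS1: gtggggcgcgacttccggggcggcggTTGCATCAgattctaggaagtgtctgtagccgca
IARS1: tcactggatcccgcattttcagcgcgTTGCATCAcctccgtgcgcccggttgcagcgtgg
MARS1: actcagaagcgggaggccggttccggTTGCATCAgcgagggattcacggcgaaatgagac
NARS1: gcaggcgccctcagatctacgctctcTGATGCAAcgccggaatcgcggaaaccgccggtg
TARS1: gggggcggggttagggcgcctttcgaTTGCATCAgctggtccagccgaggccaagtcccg

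These windows lie at chr16:70289660-70289719 on the minus strand for AARS1 (alanine), chr11:3057392-3057451 on the minus strand for CARS1 (cysteine), chr9:92293677-92293736 on the minus strand for IARS1 (isoleucine), chr12:57488038-57488097 on the plus strand for MARS1 (methionine), chr18:57621789-57621848 on the minus strand for NARS1 (asparagine) and chr5:33440941-33441000 on the plus strand for TARS1 (threonine). In NARS1 the element reads as TGATGCAA along the gene, and in the other 5 it reads as TTGCATCA. Counted from 0 at the RefSeq start, the element began at −187 in AARS1, −13 in IARS1, −4 in MARS1, −2 in CARS1, 2 in TARS1 and 14 in NARS1, so that 5 of the 6 began within 14 bases of the start. All 6 elements lay inside a ZNF217 peak in MV4-11 and in U937. In each line, at least 260 of the 300 bases of each of these promoters also lay in a peak. The count therefore follows promoter occupancy and says nothing about the element itself. Over the whole table, promoters with the element were occupied less often than promoters in general. Of all 104 promoters that held it, 45.2% belonged to an occupied gene in MV4-11 and 38.5% in U937, against 61% and 53% of all promoters in the table.

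A further 4 promoters, on which results below turn, are given in full, 300 bases each: the shared promoter of HARS1 and HARS2 (histidine), MARS2 (mitochondrial methionine), and the promoters of RARS1 (arginine) and PARS2 (mitochondrial proline), which were occupied in MV4-11 and not in U937. They lie at chr5:140691321-140691620 (minus strand), chr2:197705119-197705418 (plus strand), chr5:168486221-168486520 (plus strand) and chr1:54764474-54764773 (minus strand). Capitals mark CCGGAAG, the core bound by ETS factors, or its reverse complement, and in MARS2 also GCGCATGCG, the site of NRF1, which matched on both strands with an overlap of 8 bases, and CACGTG, the E-box bound by MYC and related factors.
HARS1: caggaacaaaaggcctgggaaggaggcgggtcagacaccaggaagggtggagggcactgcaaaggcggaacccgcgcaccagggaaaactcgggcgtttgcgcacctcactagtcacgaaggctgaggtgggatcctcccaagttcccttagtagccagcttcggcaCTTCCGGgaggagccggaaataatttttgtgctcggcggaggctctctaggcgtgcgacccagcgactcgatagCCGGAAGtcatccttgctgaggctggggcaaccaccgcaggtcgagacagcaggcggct
MARS2: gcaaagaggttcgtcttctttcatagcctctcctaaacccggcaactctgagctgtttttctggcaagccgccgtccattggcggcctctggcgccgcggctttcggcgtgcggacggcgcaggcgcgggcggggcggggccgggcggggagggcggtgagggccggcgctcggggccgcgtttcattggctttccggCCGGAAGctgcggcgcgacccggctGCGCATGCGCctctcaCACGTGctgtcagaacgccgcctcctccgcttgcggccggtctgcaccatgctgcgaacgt
RARS1: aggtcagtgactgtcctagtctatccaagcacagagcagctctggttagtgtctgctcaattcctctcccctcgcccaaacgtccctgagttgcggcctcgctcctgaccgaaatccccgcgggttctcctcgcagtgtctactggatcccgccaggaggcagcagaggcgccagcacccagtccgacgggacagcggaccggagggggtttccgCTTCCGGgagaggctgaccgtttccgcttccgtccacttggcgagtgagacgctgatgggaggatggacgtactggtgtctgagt
PARS2: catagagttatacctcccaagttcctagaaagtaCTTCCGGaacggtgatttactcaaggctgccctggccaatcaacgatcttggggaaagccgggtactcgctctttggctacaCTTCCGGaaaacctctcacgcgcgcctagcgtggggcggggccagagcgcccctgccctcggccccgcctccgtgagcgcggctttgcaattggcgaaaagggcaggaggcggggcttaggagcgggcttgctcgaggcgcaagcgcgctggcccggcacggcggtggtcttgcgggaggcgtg

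Peaks were listed as positions only, with no height or count, so a gene was called occupied where a peak overlapped 1 kb on either side of any of its annotated transcription start sites (TSS), and peak width was the only measure of size. The MV4-11 list held 37635 peaks of median width 621 bp, and the U937 list held 22521 peaks of median width 686 bp, so MV4-11 offered more peaks for any gene to meet. Sequencing depth was unknown. MV4-11 had a promoter peak at 7 of 8 myeloid marker genes and U937 at 4 of 8, beside 59% and 50.5% of all protein-coding genes. Of 4 T cell markers, 0 were occupied in either line. B cell markers were occupied at 4 of 4 in MV4-11 and 3 of 4 in U937, and erythroid markers at 2 of 4 and 1 of 4. A peak is not expression, so these counts do not type the cells. LYZ, the myeloid lysozyme gene, was without a promoter peak in both lines.

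ZNF217 peaks were found at nearly all synthetase promoters in both lines. In MV4-11, 33 of 35 synthetase genes were occupied (94.3%, interval 80.8 to 99.3%), against 59% of all protein-coding genes. In U937, 32 of 35 were occupied (91.4%, interval 76.9 to 98.2%), against 50.5% of all genes. Both lines shared 31 occupied synthetase genes (88.6%, interval 73.3 to 96.8%), against 47.4% of all genes. The remaining 4 genes were 2 occupied in MV4-11 only (RARS1 and PARS2, against 11.6% of all genes in that class), 1 in U937 only (AARS2, against 3.1%) and 1 in neither line (VARS2, against 37.9%).

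The synthetase genes also differed from all genes in promoter composition and in annotation. Of the synthetase genes, 22 of 35 (62.9%) had a CpG-rich promoter, here at least 50% GC and a CpG observed over expected ratio of at least 0.6 around the start, against 51.2% of all genes. Among all genes with CpG-rich promoters, 75.6% were occupied in MV4-11, 67.4% in U937 and 64.1% in both, which were higher than over all genes and lower than the synthetase shares. Synthetase genes also had more annotated TSS, with a median of 13 against 5 over all genes, and each further TSS gives a peak another window to meet. With 1 canonical TSS per gene, 31 synthetase genes were still occupied in both lines, against 43.8% of all genes. The part of CpG content and of TSS number in the synthetase shares was not tested.

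**Figure D1:**
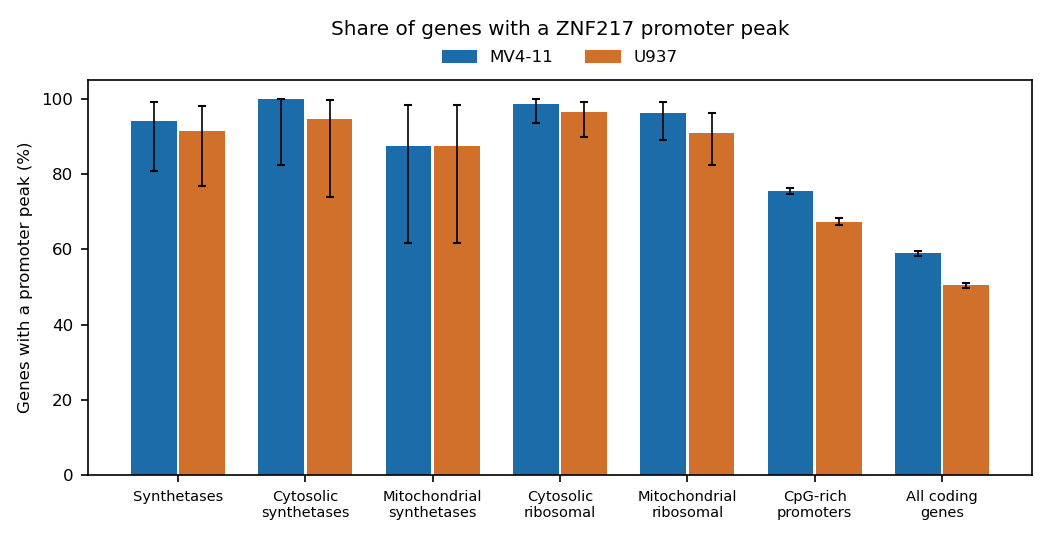
Share of genes (y axis, percent) with a ZNF217 peak within 1 kb of a TSS in MV4-11 (left bar of each pair) and U937 (right bar), for synthetase genes, their cytosolic and mitochondrial subsets, 2 sets of ribosomal protein genes, genes with CpG-rich promoters and all protein-coding genes; error bars are exact 95% intervals for counting error. Synthetase shares of 94.3% and 91.4% stand beside 59% and 50.5% for all genes, and the cytosolic ribosomal protein genes reach 98.8% and 96.5%.

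High occupancy was shared with other genes of protein synthesis. Of 85 cytosolic ribosomal protein genes, 84 had a promoter peak in MV4-11 (98.8%) and 82 in U937 (96.5%). Of 78 mitochondrial ribosomal protein genes, 75 had one in MV4-11 (96.2%) and 71 in U937 (91%). The median width of the widest promoter peak was 1084 bp in MV4-11 against 960 bp in U937 for occupied synthetase genes, against 1084 bp and 979 bp for all occupied genes, so the medians lay within 20 bp of those of all genes.

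In both lines, 94.7% of cytosolic genes (interval 74 to 99.9%) and 81.2% of mitochondrial genes (interval 54.4 to 96%) were occupied. The intervals were wide and overlapped. Of the cytosolic genes, 19 of 19 were occupied in MV4-11 and 18 of 19 in U937, with RARS1 as the exception in U937. Of the mitochondrial genes, 14 of 16 were occupied in MV4-11 and 14 of 16 in U937, with 13 in common. Cytosolic genes had a median widest promoter peak of 1117 bp in MV4-11 against 898 bp in U937, whereas mitochondrial genes had 926 bp in MV4-11 against 1158 bp in U937. The order of the 2 sets therefore differed between the lines, and the ranges overlapped in each: 443 to 1910 bp for cytosolic and 496 to 2170 bp for mitochondrial genes in MV4-11, and 412 to 1853 bp and 434 to 2192 bp in U937. By structural class of the enzyme, class I genes had medians of 1117 bp in MV4-11 against 998 bp in U937, and class II genes 1084 bp and 963 bp.

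Most peaks sat across the start of the gene. At the canonical TSS, that of the transcript GENCODE marks as representative, a peak within 1 kb was found for 33 synthetase genes in MV4-11 and 31 in U937. The peak covered the TSS itself in 33 of 33 genes in MV4-11, against 89.4% over all genes, and in 29 of 31 in U937, against 83.5%. Median peak edges lay at −507 and 416 bp from the TSS along transcription in MV4-11, and at −480 and 344 bp in U937. The exceptions in U937 were SARS1 (serine) and WARS1 (tryptophan). At SARS1 the U937 peak ran from 6 to 666 bp downstream of the TSS, whereas the MV4-11 peak ran from −250 to 672. At WARS1 the U937 peak ran from −1383 to −146 bp, upstream of the canonical TSS, whereas the MV4-11 peak ran from −1749 to 161. RefSeq starts this gene further upstream, however, and all 300 bases of the RefSeq promoter lay inside the peak in both lines.

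**Figure D2:**
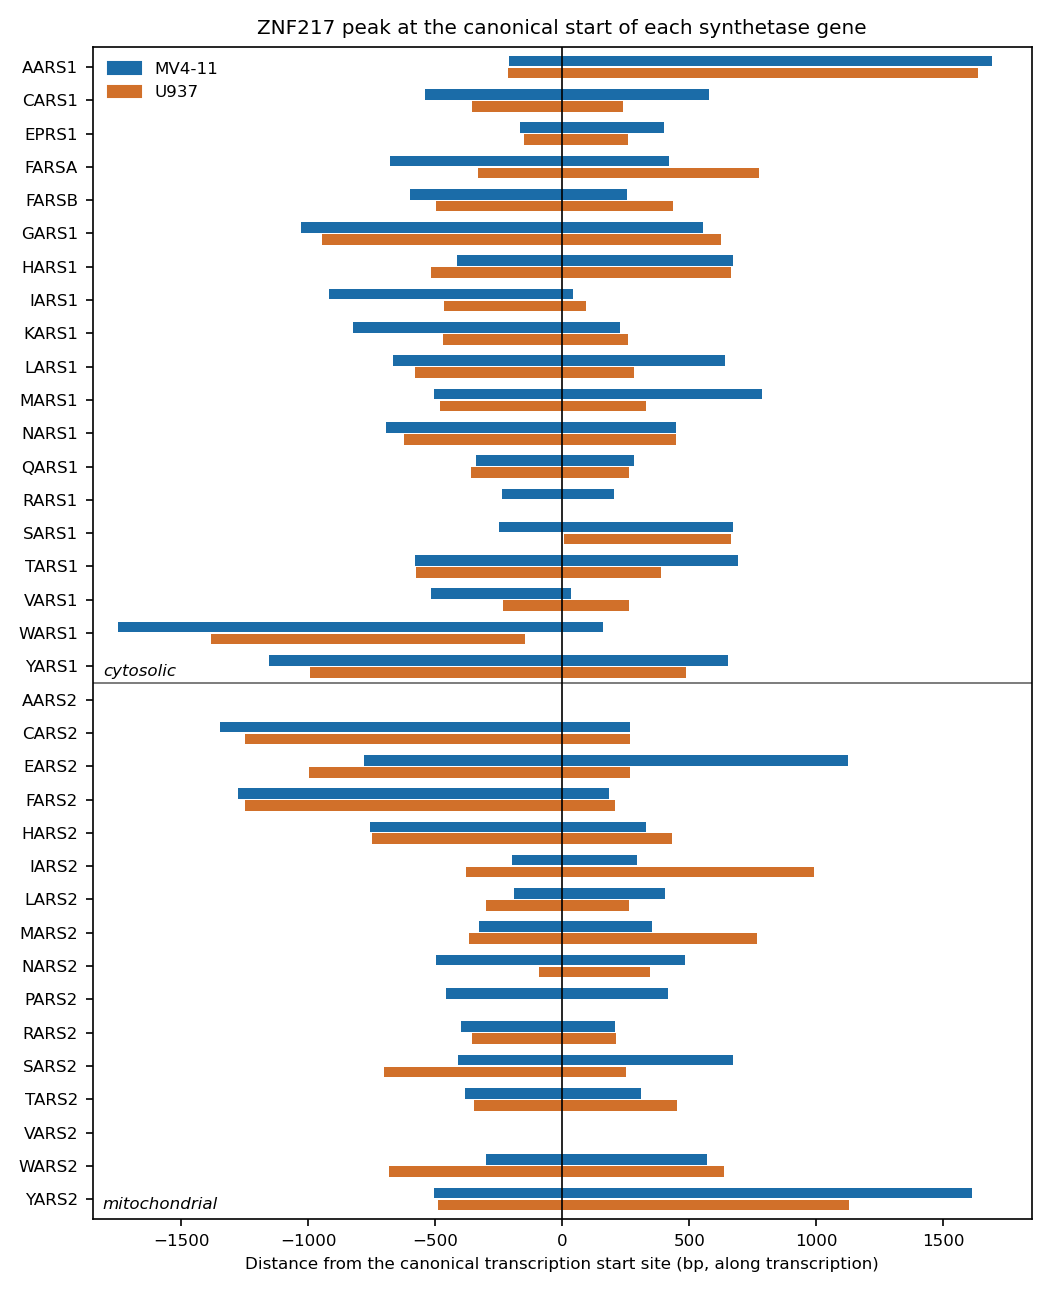
ZNF217 peak at the canonical TSS of each synthetase gene (rows, cytosolic above and mitochondrial below the line), drawn to scale as distance from the TSS in bp along transcription (x axis), with MV4-11 as the upper and U937 as the lower bar of each row. Bars cross 0 in all 33 MV4-11 peaks and in 29 of 31 U937 peaks, RARS1 and PARS2 lack a U937 bar, and AARS2 and VARS2 have no bar.

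Canonical peaks overlapped between the lines but seldom had the same edges. For the 31 genes with a canonical peak in both, the peaks overlapped in all 31, and a median of 76.5% of the MV4-11 peak and 96.6% of the U937 peak was covered by the other. The widest promoter peak of a gene lay away from the canonical TSS at some genes. Its width had a Spearman rank correlation between the lines of 0.61 over the 31 genes occupied in both. Over 9472 genes the correlation was 0.52, and HARS1 and HARS2 shared a peak among the 31. Upstream edges of the canonical peaks lay within 20 bp of each other at 5 genes and downstream edges at 6. The overlap was small beside the wider peak at some genes, covering 36.3% of the U937 peak at IARS2 and 44.3% of the MV4-11 peak at NARS2, and at VARS1 it covered 48.8% of the MV4-11 peak and 54.1% of the U937 peak. At NARS1 and CARS2 (mitochondrial cysteine) the downstream edge fell on the same base in both lines, 57621388 on chromosome 18 and 110705849 on chromosome 13. The U937 peak lay wholly within the MV4-11 peak at 12 genes, and the reverse held at 3, IARS2, MARS2 and WARS2, all mitochondrial.

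The canonical peak was wider in MV4-11 at 22 of the 31 genes (71%), against 64.5% over all genes with both. Among cytosolic genes it was wider in MV4-11 at 14 of 18, with a median ratio of MV4-11 to U937 width of 1.27, and among mitochondrial genes at 8 of 13, with a median ratio of 1.06. All genes had a median ratio of 1.13. Widths differed by over 2 times at 2 genes, both mitochondrial. NARS2 (asparagine) had a peak of 979 bp in MV4-11 against 434 bp in U937, a ratio of 2.26, at chr11:78574381-78575360 and chr11:78574520-78574954. IARS2 (isoleucine) went the other way, with 496 bp in MV4-11 against 1368 bp in U937, a ratio of 0.36, at chr1:220093932-220094428 and chr1:220093754-220095122. The extra length at IARS2 was mainly downstream, where the U937 peak ended 990 bp into the gene and the MV4-11 peak at 296 bp.

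**Figure D3:**
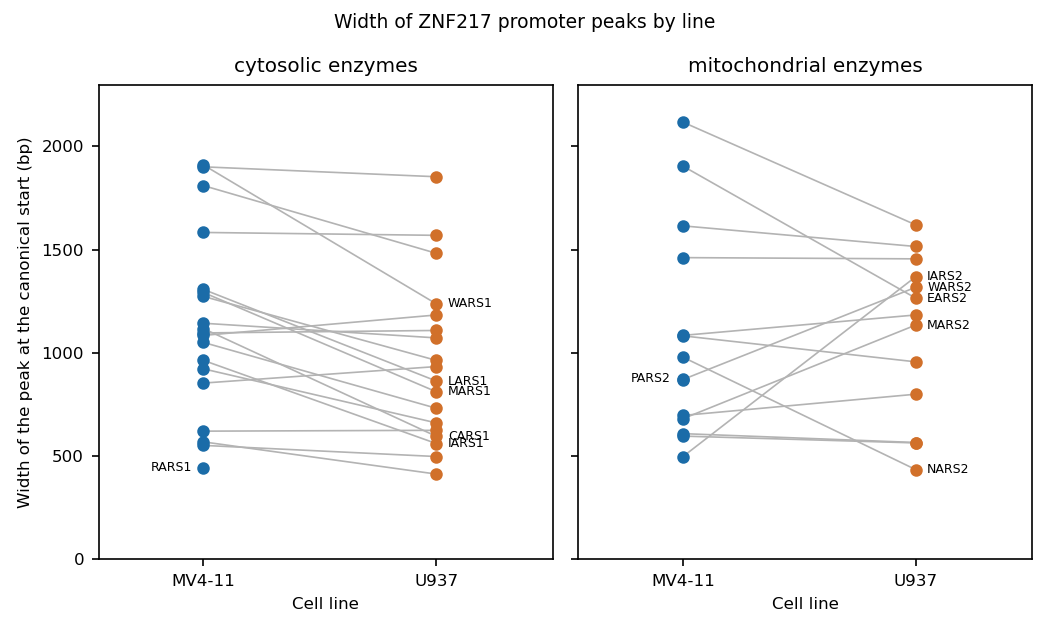
Width in bp (y axis) of the peak at the canonical TSS of each synthetase gene in MV4-11 (left) and U937 (right), with a line joining the 2 values of a gene, for cytosolic (left panel) and mitochondrial (right panel) enzymes. Lines slope down at 14 of 18 cytosolic and 8 of 13 mitochondrial genes, and the mitochondrial panel holds both extremes of the ratio, IARS2 at 0.36 and NARS2 at 2.26.

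RARS1 and PARS2 were occupied in MV4-11 and had no promoter peak in U937. At RARS1, the arginine enzyme of the multi-synthetase complex, the MV4-11 peak was 443 bp wide at chr5:168486233-168486676. It was the narrowest of the 33 canonical peaks in that line, and it covered 287 of the 300 promoter bases printed above. At PARS2, which charges mitochondrial tRNA with proline, the MV4-11 peak was 874 bp wide at chr1:54764107-54764981 and covered all 300 bases. Keeping only the widest MV4-11 peaks, so that both lists had equal length, left RARS1 without a peak in either line and PARS2 occupied in MV4-11 still.

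AARS2 and VARS2 had no peak at their canonical TSS in either line. AARS2, the mitochondrial alanine enzyme, counted as occupied in U937 through a peak of 600 bp at chr6:44301867-44302467, which lay 10880 to 11480 bp downstream of the canonical TSS and near a second annotated start. With the canonical TSS alone it was occupied in neither line. VARS2, the mitochondrial valine enzyme at chr6:30914205-30926459, was without a promoter peak in MV4-11 and U937, although its promoter was CpG-rich.

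The enzymes of the multi-synthetase complex had narrow peaks in U937. The 7 genes EPRS1, IARS1, LARS1, MARS1, QARS1, RARS1 and KARS1 had a median canonical peak of 963 bp in MV4-11 (7 peaks, 443 to 1307 bp) and 678 bp in U937 (6 peaks, 412 to 863 bp), whereas the 12 other cytosolic genes had 1130 bp in MV4-11 against 1090 bp in U937. EPRS1, a fused glutamyl and prolyl enzyme, had 568 bp in MV4-11 against 412 bp in U937, the narrowest of the U937 canonical peaks. IARS1 had 963 bp in MV4-11 against 560 bp in U937. The difference at IARS1 lay upstream of the start, where the MV4-11 peak reached −920 bp and the U937 peak −466 bp. MARS1 had 1292 bp in MV4-11 against 811 bp in U937. At LARS1 (leucine) the widths were 1307 bp in MV4-11 against 863 bp in U937. KARS1 (lysine) had 1050 bp in MV4-11 against 731 bp in U937, so that the MV4-11 peak was wider at these 5 genes. QARS1, the glutamine enzyme, differed from them, with 620 bp in MV4-11 against 624 bp in U937. QARS1 also had a wider MV4-11 peak of 1610 bp, 4323 to 5933 bp downstream of the canonical TSS at chr3:49098824-49100434, near another annotated start, and no U937 peak overlapped it. Its ratio of widest promoter peaks, 2.58, thus compared 2 different places.

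The widest promoter peaks belonged to CARS2, YARS2, WARS1, EARS2 and AARS1 in MV4-11 and to CARS2, AARS1, YARS2, GARS1 and YARS1 in U937. CARS2 had 5 promoter peaks in MV4-11 and 4 in U937, spread over 32 annotated TSS. Its widest, 2170 bp in MV4-11 against 2192 bp in U937, lay from −10244 to −8074 bp and from −10226 to −8034 bp of the canonical TSS and also overlapped the promoter region of ING1, a tumor suppressor that reads chromatin. The peak at its own canonical TSS was 1615 bp in MV4-11 against 1515 bp in U937. YARS2 (mitochondrial tyrosine) had 2118 bp in MV4-11 against 1620 bp in U937, reaching 1613 bp and 1131 bp into the gene. AARS1, with 1901 bp in MV4-11 against 1853 bp in U937, was nearly equal in the 2 lines. GARS1 (glycine) had 1583 bp in MV4-11 against 1569 bp in U937, and YARS1 (tyrosine) had 1810 bp and 1482 bp. WARS1 had 1910 bp in MV4-11 against 1237 bp in U937.

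Narrow canonical peaks were found for LARS2 (mitochondrial leucine), RARS2 (mitochondrial arginine) and VARS1 (valine) in both lines. LARS2 had 596 bp in MV4-11 against 563 bp in U937. RARS2 had 608 bp in MV4-11 against 565 bp in U937, with upstream edges at −400 and −355 bp and downstream edges at 208 and 210 bp. VARS1, in the major histocompatibility region of chromosome 6, had 551 bp at chr6:31795717-31796268 in MV4-11 and 497 bp at chr6:31795489-31795986 in U937, which overlapped by 269 bp. A second VARS1 peak of 660 bp in MV4-11, 18163 to 18823 bp downstream, lay at the promoter of the neighbouring gene VWA7 and was absent from the U937 list.

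The other members lay between these. The remaining cytosolic genes occupied in both lines were CARS1 (1117 bp in MV4-11, 595 bp in U937), FARSA and FARSB, the subunits of the phenylalanine enzyme (1096 and 853 bp in MV4-11, 1108 and 933 bp in U937), NARS1 (1143 bp, 1072 bp), SARS1 (922 bp, 660 bp) and TARS1 (1273 bp, 963 bp). CARS1 had the highest ratio of any cytosolic canonical peak, 1.88. The remaining mitochondrial genes were MARS2 (680 bp in MV4-11, 1134 bp in U937), TARS2, the threonine enzyme (696 bp, 799 bp), and WARS2, the tryptophan enzyme (870 bp, 1317 bp), all wider in U937.

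Of the synthetase genes, 9 of 35 (25.7%) had a protein-coding partner transcribed in the opposite direction from within 1 kb upstream, against 12.7% of all genes. All 9 were occupied in both lines, beside 82.8% of all genes with such a partner. The pairs were AARS1 with DDX19B, a helicase of mRNA export, KARS1 with TERF2IP, a telomere protein, YARS1 with S100PBP, EARS2 (mitochondrial glutamate) with UBFD1, FARS2 (mitochondrial phenylalanine) with LYRM4, which acts in iron-sulfur cluster assembly, RARS2 with ORC3, an origin recognition subunit, and SARS2 (mitochondrial serine) with MRPS12, a mitochondrial ribosomal protein. HARS1 and HARS2 were partners of each other. A peak between partners belongs to either gene, and these members therefore share their peaks with another gene. HARS1 and HARS2 had 1 peak in each line, 1084 bp at chr5:140690699-140691783 in MV4-11 and 1183 bp at chr5:140690705-140691888 in U937, and it spanned both starts. Of the other pairs, EARS2 had 1905 bp in MV4-11 against 1265 bp in U937, and FARS2 had 1461 bp against 1455 bp. SARS2 had 1082 bp in MV4-11 against 956 bp in U937.

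Peaks were compared between the cytosolic and mitochondrial enzymes for the same amino acid. Of the pairs of cytosolic and mitochondrial genes with a promoter peak for both, leaving out HARS1 and HARS2, which share 1 peak, the cytosolic gene had the wider widest peak in 6 of 14 in MV4-11 and 4 of 13 in U937. EPRS1 was paired with EARS2 and with PARS2, and FARS2 with FARSA and with FARSB, so these genes can count more than once. The isoleucine pair changed order, with IARS1 at 963 bp and IARS2 at 496 bp in MV4-11, and IARS1 at 560 bp and IARS2 at 1368 bp in U937. The methionine pair did likewise, with MARS1 at 1292 bp and MARS2 at 680 bp in MV4-11, and 811 bp and 1134 bp in U937. For tryptophan the difference in MV4-11, 1910 bp for WARS1 and 870 bp for WARS2, nearly vanished in U937, where WARS1 had 1237 bp and WARS2 1317 bp.

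Promoter peaks of synthetase genes were mostly shared between the lines. Counting every peak within 1 kb of any TSS, 32 of 43 MV4-11 peaks overlapped a U937 peak (74.4%, interval 58.8 to 86.5%), against 62.6% over all genes, and 32 of 34 U937 peaks overlapped an MV4-11 peak (94.1%, interval 80.3 to 99.3%), against 87%. Peaks without a counterpart were narrower, with a median of 563 bp against 1090 bp for shared peaks in MV4-11, and 773 bp, from only 2 peaks, against 1018 bp in U937. Over all genes the same held, with 563 bp against 1102 bp in MV4-11 and 518 bp against 921 bp in U937. With the canonical TSS alone, the shared shares were 90.9% in MV4-11 and 100% in U937, so the unshared peaks lay mainly at alternate starts.

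Peaks away from promoters were counted as well. When every peak was given to whichever gene had the closest TSS, up to 100 kb away, synthetase genes received 52 peaks in MV4-11, 17 of them distal, and 34 in U937, 8 of them distal. The mean per gene was 1.49 in MV4-11 and 0.97 in U937, against 1.72 and 1.03 over all genes, and the median was 1 in each case. Some genes received 0 peaks (6 in MV4-11, 9 in U937), among them KARS1, HARS2 and RARS2, whose peak lay nearer to the start of the divergent partner. LARS2 received the most in MV4-11, 5, and had 3 in U937. Beyond its promoter, LARS2 had an intronic peak of 759 bp in MV4-11 against 1049 bp in U937, beginning 156388 bp and 156612 bp into the gene, and an exonic peak of 967 bp against 494 bp, beginning at 159108 bp and 158709 bp. The peaks at LARS2 that U937 lacked were intronic, 465 bp and 742 bp wide. CARS1 had 3 in each line, one of which was an intronic peak of 572 bp in MV4-11 against 409 bp in U937, beginning 7127 bp and 7108 bp downstream of the canonical TSS. NARS1 had a peak 8.1 kb from its start in both lines, 619 bp in MV4-11 against 872 bp in U937.

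Of the promoter motifs searched on both strands, ETS and YY1 matches were more frequent in synthetase promoters than over the table. CCGGAAG, the ETS core, was found in 14 of 30 (46.7%), 8 of 16 cytosolic and 6 of 14 mitochondrial, against 14.4% of all promoters. HARS1 and HARS2 hold the same matches, which count in the cytosolic and in the mitochondrial set. AAGATGGCG, the YY1 site, was found in 5 of 30 (16.7%; FARSA, KARS1, NARS1, WARS2 and YARS2), against 2.8%. Over the whole table, promoters with the ETS letters were occupied at 85.9% in MV4-11 and 79.8% in U937, and those with the YY1 letters at 91.1% and 87.9%. Both were above the 61% and 53% of all promoters, while genes with CpG-rich promoters reached 75.6% and 67.4%. High shares were not particular to these letters, since promoters with the NRF1 letters were occupied at 90% and 83.3%. Of 19 ETS matches, counted for each gene so that the pair in the HARS1 and HARS2 promoter counts under both, all 19 lay in an MV4-11 peak and 15 in a U937 peak. The 4 outside were those of RARS1, SARS1 and the pair in PARS2. RARS1 and PARS2 had no U937 promoter peak, and at SARS1 only 18 of the 300 promoter bases lay in one. At the other promoters with ETS letters, all 300 bases lay in a peak in both lines. All 5 YY1 matches lay inside peaks of both lines, as did all 300 bases of each of their promoters. These counts therefore follow promoter occupancy and say nothing about the letters themselves.

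Other letters were less distinct. GGGCGG, bound by Sp1 and KLF factors, was found in 70% of synthetase promoters against 59.2% of all, and CCAAT, the NF-Y box, in 53.3% against 36.6%. CACGTG was found in 13.3% (IARS1, CARS2, EARS2 and MARS2) against 8.88%, and GCGCATGCG in MARS2 alone (3.33% against 2.74%). Promoters of the table with GGGCGG were occupied at 72.8% in MV4-11 and 63.5% in U937. Those with CCAAT were occupied at 61.5% and 54.1%, and those with CACGTG at 71.8% and 64.3%. CAGAA, the core of the motif described for ZNF217, was found in 12 of 30 synthetase promoters (40%), against 48.5% of all promoters. Promoters of the table with CAGAA were occupied at 54.6% in MV4-11 and 47.4% in U937, less often than all its promoters (61% and 53%). A match describes letters in a 300-base window and not a bound site.

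**Figure D4:**
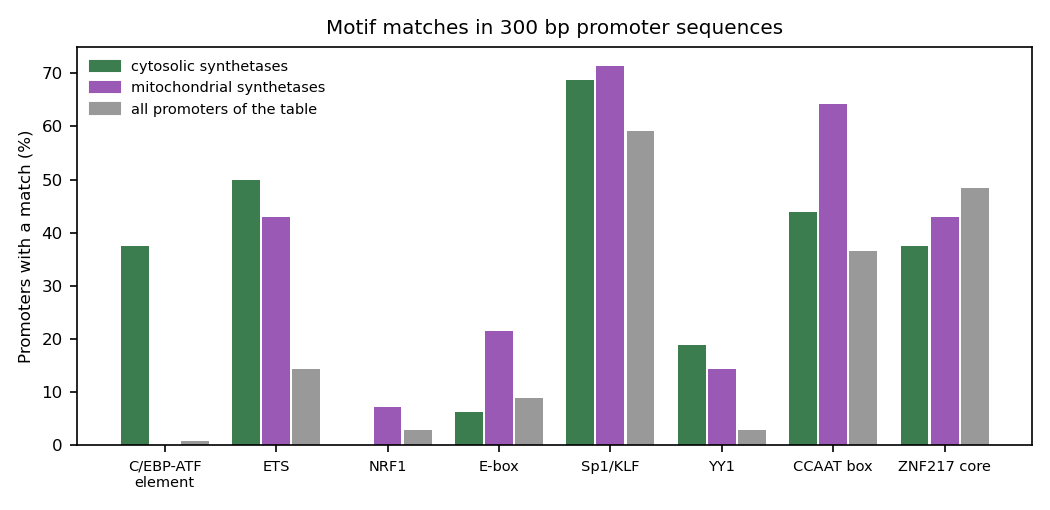
Share of 300-base promoter sequences (y axis, percent) holding an exact match on either strand to each of 8 motifs (x axis), for 16 cytosolic synthetases, 14 mitochondrial synthetases and all 15315 promoters of the table. The C/EBP-ATF response element was found in 6 of 16 cytosolic and 0 of 14 mitochondrial promoters. ETS was found in 8 of 16 and 6 of 14, with the matches shared by HARS1 and HARS2 counted in each.

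Genes that work with the synthetases were examined in the same way. Of 30 such genes, none of them a synthetase, 29 had a promoter peak in MV4-11 and 26 had one in U937, with 25 in common, beside 59%, 50.5% and 47.4% of all genes and 75.6%, 67.4% and 64.1% of genes with CpG-rich promoters. The scaffolds of the multi-synthetase complex were occupied in both lines, AIMP1 with peaks of 1205 bp in MV4-11 against 1121 bp in U937, AIMP2 with 1121 and 965 bp, and EEF1E1 with 624 and 514 bp. All 4 elongation factor 1 subunits (EEF1A1, EEF1B2, EEF1D, EEF1G) and all 3 subunits of the mitochondrial glutaminyl-tRNA amidotransferase (GATB, GATC, QRSL1) were occupied in both. Among genes of tRNA handling, DTD1, which removes D-amino acids from tRNA, was occupied in MV4-11 only (975 bp) and MTFMT, which formylates the mitochondrial initiator tRNA, in U937 only (402 bp).

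In the amino acid response, all 5 sensors and regulators were occupied in both lines. Over all genes this share was 47.4%, and over genes with CpG-rich promoters 64.1%. EIF2AK4, GCN1, ATF4, DDIT3 and TRIB3 made up the 5, with the ATF4 peak at 2780 bp in MV4-11 against 1609 bp in U937. Of 9 targets, 9 were occupied in MV4-11, beside 75.6% of genes with CpG-rich promoters, and 6 in U937, near the 67.4% of such genes. Over all genes the shares were 59% and 50.5%. The MV4-11 list was the longer, and what the difference between these counts reflects was not tested. The class of genes occupied in MV4-11 only held 11.6% of all genes. Of the targets it held 3, ASNS, asparagine synthetase (633 bp), CHAC1, a glutathione-degrading enzyme (928 bp), and SLC7A11, the cystine transporter (537 bp). SESN2, PSAT1, PHGDH, SHMT2, SLC7A5 and SLC3A2 were occupied in both lines, PSAT1 with 1142 bp in MV4-11 against 364 bp in U937.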

How the data were processed

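ZNF217 CUT&Tag libraries of untreated MV4-11 and U937 cells were analysed, 1 per line, grouped by the cell line and antibody in the labels. The authors aligned the reads to hg38 with Bowtie2 2.4.4 and called peaks per library with MACS3 3.0 under a q-value threshold. Whether the IgG library served as control, and the treatment of duplicates, were not given in the sources used here. The deposited files list peak positions in bp with no height, score or read count, so depth was unknown and no stricter score threshold could be applied. Positions are printed as deposited, and whether starts count from 0 or 1 is open by 1 bp.

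Peaks were joined to TSS of GENCODE release 44 with Python 3.11.15, NumPy 2.4.6, SciPy 1.17.1 and pysam 0.24.0, and plotted with Matplotlib 3.10.9. A promoter peak overlapped 1 kb on either side of any TSS, and an overlap of 1 bp made a peak shared. Alternate copies of promoters were found with minimap2 2.31 (at least 90% aligned, 95% identity), and sequence was read from hg38 with samtools 1.23.1. Shares have exact (Clopper-Pearson) 95% intervals. The joins were tested on simulated peaks. Alternatives were 500 bp or 3 kb windows, 1 TSS per gene, a 400 bp minimum width, lists of equal length, merging within 500 bp, reciprocal overlap of 50%, sharing within 500 bp and a 50 kb limit.

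The members, lists and motifs were chosen with earlier results of these data known. Every member was accounted for, and positions or widths were given for members occupied in 1 line or neither, the 5 widest and narrowest, those in the multi-synthetase complex, with divergent partners, ratios over 2, most nearest peaks or alternate copies. Pathway genes were named where occupied in 1 line only, and for some groups more than 3 were named. Peaks on chromosome Y and alternate sequences stayed out of all shares.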

Additional observations from a re-analysis of the deposited data

Results flagged for a closer look

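Peaks also lay on sequences outside chromosomes 1 to 22 and X, where hg38 holds alternate copies of some promoters, and no control sample was analysed for them. The MV4-11 list had peaks over 5 of 5 alternate copies of the VARS1 promoter (identity 99.9 to 100%), and the U937 list over 2 of 5. For VARS2, which had no promoter peak on chromosome 6, 0 of 5 copies had a peak in either line (identity 99.7 to 100%). The single alternate copy of the CARS1 promoter (identity 99.55%) had a peak in MV4-11 and none in U937. The share of reads that map to several of these copies was not tested.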

How the results depend on the processing

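Of 98 values over 16 results recomputed under the alternatives, 96 stayed in range and 2 did not, the range being the 95% interval for shares and medians and 1.5 times the value either way for counts. With 1 TSS per gene, the share of MV4-11 promoter peaks overlapping a U937 peak was 90.9% in place of 74.4%, and that of U937 peaks overlapping an MV4-11 peak was 100% in place of 94.1%, since peaks at alternate starts then drop out. The number of synthetase genes occupied in both lines was 31 under the 5 other alternatives run for it and 30 with lists of equal length, where IARS2 became U937 only and RARS1 was in neither. Lists of equal length also gave 39 nearest peaks in MV4-11 in place of 52. AARS2 was in neither with 1 TSS per gene. No paired analysis was possible because each line had 1 library. Read depth and peak height could not be weighed, and IgG background was not, so a missing peak is not evidence of no binding. Peaks were likewise not compared with the IgG samples, so an occupied gene is one with a listed peak and background signal was not excluded.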
